A study of Mus musculus with 16 samples.

Results

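A set of 10 genes, namely Bex4, Ccl25, Lyplal1, Snapc1, D8Ertd82e, Hdhd3, Alad, Stxbp2, Fam227b and Filip1l, set the biglycan-knockout line apart from wild type in the hippocampus, whatever the mice drank. They are 10 of 22572 gene names measured, and all 10 reached the mean of 1 FPKM (fragments for each kilobase of transcript, corrected for library size) that 12648 genes needed to be tested. They were chosen because their levels differed between the genotypes on both drinks, so the genotype differences below are descriptions and carry no p-value. The names were matched to the table, and where a name had more than 1 locus the loci were summed. All mice were male C57BL/6. The 4 groups, with 4 libraries each, were knockouts (Bgn0/- in the labels, called BgnKO here) on regular water, WT on regular water, BgnKO on 15% (w/v) fructose, and WT on 15% (w/v) fructose, for 6 weeks from 3 months of age. The labels do not say that the WT mice were littermates of the BgnKO mice, nor that the libraries came from separate animals. The loss of Bgn and any other difference between the lines can therefore not be told apart, and p-values measure the spread between these libraries.

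Biglycan is a small proteoglycan of the extracellular matrix, encoded by Bgn on the X chromosome, so a male with the deleted allele has no intact copy. The 10 genes share no pathway. They include a chemokine (Ccl25), an enzyme of heme synthesis (Alad), a subunit of the complex that starts transcription of small nuclear RNA genes (Snapc1), and a Sec1/Munc18 protein that binds syntaxins in vesicle fusion (Stxbp2). Lyplal1 is a serine hydrolase related to the acyl-protein thioesterases, Hdhd3 belongs to the haloacid dehalogenase-type hydrolases, Bex4 to the small brain-expressed X-linked proteins, and D8Ertd82e is an older name of Prag1, which encodes the pseudokinase Pragmin. Filip1l is named for its likeness to the filamin-binding protein Filip1, and the function of Fam227b is little known.

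In BgnKO, 5 of the genes were lower than in WT on both drinks (Bex4, Ccl25, Lyplal1, Snapc1 and D8Ertd82e) and 5 were higher (Hdhd3, Alad, Stxbp2, Fam227b and Filip1l). For all 10, the 8 BgnKO libraries did not overlap the 8 WT libraries, which was so for 1.19% of all tested genes (150 genes). With limma and Benjamini-Hochberg adjustment over all tested genes, 9 of the 10 passed the threshold of 0.05 on water, where 0.387% of all tested genes did, and 10 of 10 passed on fructose, where 3.76% did. Both drinks called 42 genes in the same direction, 0.332% of those tested, and 9 of these are among the 10. Nothing is read from these counts, because the genes were chosen on these contrasts. The gene not called on water was Filip1l. The members' median absolute log2 fold was 0.91 on water and 1.02 on fructose, beside 0.06 and 0.12 over all tested genes. In bulk tissue, fewer cells of a type and less RNA per cell cannot be told apart.

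Bex4 (mm10, chromosome X, 136138996 to 136140443, plus strand) had the lowest fold of the 10. On water it measured 3.46, 4.30, 5.09 and 3.23 FPKM in BgnKO, against 14.8, 13.8, 14.7 and 14.6 FPKM in WT. On fructose it measured 3.78, 4.67, 4.28 and 2.79 FPKM in BgnKO, against 14.9, 17.3, 15.5 and 16.3 FPKM in WT. The highest BgnKO library thus lay far below the lowest WT library, with a ratio of 2.70 between them, the widest gap among the 10 genes. The BgnKO mean was 0.278 times the WT mean on water and 0.242 times on fructose. The log2 folds of FPKM + 1, the scale of all folds here, were -1.64 ± 0.12 and -1.82 ± 0.12 (SE, n = 4 per group). Because its difference was the largest of the 5 lower genes, its upstream sequence is shown, from the RefSeq promoter table (GRCm38.p6), chrX:136138746-136138995, plus strand, 5′ to 3′. Capitals mark copies of GGGCGG, the core of sites bound by Sp1-type factors, and a CACGTG, an E-box, both searched on either strand.
Bex4: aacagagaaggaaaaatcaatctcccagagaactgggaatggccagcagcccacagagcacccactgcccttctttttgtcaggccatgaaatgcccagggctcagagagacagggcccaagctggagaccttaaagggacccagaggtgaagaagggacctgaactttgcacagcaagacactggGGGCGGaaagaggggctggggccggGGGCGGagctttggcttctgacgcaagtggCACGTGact

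Ccl25 (chromosome 8, 4325210 to 4360020, plus strand) is the ligand of the receptor Ccr9 and is known for drawing T cells to the thymus and small intestine. On water it measured 2.51, 2.83, 3.08 and 2.58 FPKM in BgnKO, against 6.06, 7.84, 7.15 and 7.28 FPKM in WT. With fructose its values were 2.88, 2.70, 3.45 and 3.35 FPKM in BgnKO, against 7.43, 8.65, 7.54 and 6.50 FPKM in WT. Every BgnKO library was thus at about the same low level on either drink, and the folds were -1.11 ± 0.09 and -1.06 ± 0.09 (SE). Its receptor Ccr9 averaged 0.086 FPKM in BgnKO and 0.080 FPKM in WT on water, below the level that was tested.

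Lyplal1 (chromosome 1, 186087731 to 186117310, minus strand) varied least between replicates. Its pooled SD within groups, 0.08 on the log2 scale, was at the 9.02 percentile of all tested genes. On water it measured 4.29, 3.57, 3.96 and 3.51 FPKM in BgnKO, against 8.25, 7.30, 7.44 and 7.21 FPKM in WT. In the fructose groups it measured 4.00, 3.74, 4.32 and 3.85 FPKM in BgnKO, against 7.69, 7.60, 7.76 and 7.11 FPKM in WT. BgnKO libraries held 0.508 times the WT mean on water and 0.528 times on fructose, with folds of -0.82 ± 0.07 and -0.78 ± 0.07 (SE).

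Snapc1 (chromosome 12, 73964481 to 73988966, plus strand) measured 8.26, 7.73, 7.98 and 6.78 FPKM in BgnKO and 14.3, 13.9, 13.7 and 13.5 FPKM in WT on water. On fructose the values were 6.84, 7.77, 6.06 and 5.81 FPKM in BgnKO and 13.4, 14.1, 12.1 and 14.1 FPKM in WT. All WT libraries lay above all BgnKO libraries, with folds of -0.78 ± 0.08 on water and -0.92 ± 0.08 on fructose (SE). D8Ertd82e (chromosome 8, 36094827 to 36147787, plus strand) was the most abundant of the genes that were lower in BgnKO. It measured 11.2, 10.5, 11.1 and 10.8 FPKM in BgnKO and 19.0, 19.7, 22.1 and 22.2 FPKM in WT on water. In the fructose groups it measured 9.41, 11.03, 11.8 and 9.79 FPKM in BgnKO and 20.3, 21.3, 22.7 and 23.0 FPKM in WT. Its BgnKO level was close to 0.5 times the WT level on both drinks (0.525 and 0.481 times), and its folds were -0.87 ± 0.07 and -0.99 ± 0.07 (SE).

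**Figure D1:**
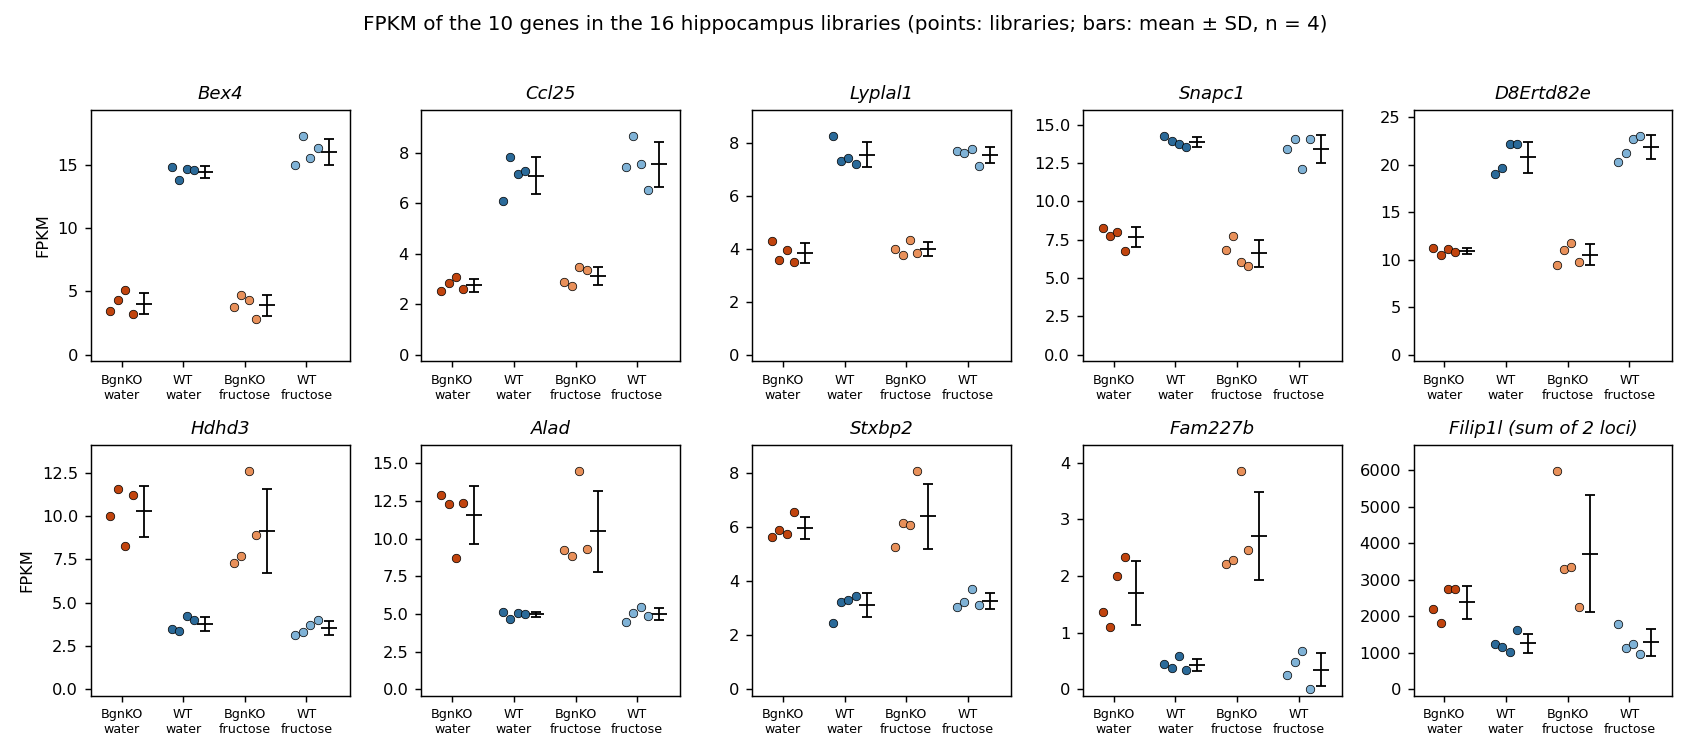
FPKM (y axis, linear, one scale per gene) of each of the 10 genes in BgnKO and WT libraries on water and on fructose; points are libraries and bars give the mean ± SD of 4. The upper row holds the 5 genes lower in BgnKO and the lower row the 5 higher ones, and in each panel all 8 BgnKO points lie on one side of all 8 WT points.

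Hdhd3 and Alad lie side by side on chromosome 4, with 16.5 kb between their starts, and both were higher in BgnKO. Hdhd3 (62499008 to 62503467, minus strand) measured 9.99, 11.6, 8.30 and 11.2 FPKM in BgnKO and 3.48, 3.34, 4.22 and 4.01 FPKM in WT on water. On fructose it measured 7.30, 7.68, 12.6 and 8.93 FPKM in BgnKO and 3.12, 3.32, 3.71 and 4.02 FPKM in WT. Its BgnKO mean was 2.73 times the WT mean on water and 2.58 times on fructose, with folds of 1.24 ± 0.14 and 1.13 ± 0.14 (SE). Alad (62509169 to 62519918, minus strand) encodes delta-aminolevulinate dehydratase, which joins aminolevulinate molecules at an early step of heme synthesis. It measured 12.9, 12.3, 8.74 and 12.4 FPKM in BgnKO and 5.11, 4.67, 5.07 and 5.002 FPKM in WT on water. On fructose the values were 9.26, 8.84, 14.5 and 9.29 FPKM in BgnKO and 4.50, 5.08, 5.45 and 4.88 FPKM in WT. Replicate 3 stood apart for both genes, as the lowest BgnKO library on water and the highest on fructose. The Alad folds were 1.06 ± 0.13 on water and 0.92 ± 0.13 on fructose (SE).

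The upstream sequences of this pair are shown because the genes moved together, from the RefSeq promoter table (GRCm38.p6), minus strand, 5′ to 3′, without bases that GENCODE vM21 places in an exon. They run over chr4:62502277-62502450 for Hdhd3 and chr4:62519919-62520159 for Alad. The Hdhd3 bases precede the start of its shorter, coding transcript and lie in an intron of a longer one, whose start lies further upstream and is the one used for distances. In both sequences capitals mark the same motifs and CCAAT, which reads ATTGG on the other strand; overlapping copies run together.
Hdhd3: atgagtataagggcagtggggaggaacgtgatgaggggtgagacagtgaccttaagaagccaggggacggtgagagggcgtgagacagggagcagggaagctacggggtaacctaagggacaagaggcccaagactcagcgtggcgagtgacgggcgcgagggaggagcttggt
Alad: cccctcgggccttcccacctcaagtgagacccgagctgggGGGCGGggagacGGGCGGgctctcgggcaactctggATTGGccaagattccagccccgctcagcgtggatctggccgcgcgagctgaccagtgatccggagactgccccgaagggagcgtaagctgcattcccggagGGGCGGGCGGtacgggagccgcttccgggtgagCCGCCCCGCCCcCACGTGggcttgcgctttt
Hdhd3 had none of the motifs in the bases shown, but its full entry holds GGGCGG 1 time, among the 76 bases left out. Alad had GGGCGG 6 times in the bases shown and 2 times in its other entry, chr4:62520064-62520313. The entries overlap, and those 2 copies are also among the 6. RefSeq promoter entries were found for 9 of the 10 genes, 12 entries in all, with none matched for D8Ertd82e. Over the 250 bases before the start, GGGCGG was in 6 of the 12 entries (32.7% of all 32851 promoters), CACGTG in 4 (6.02%), CCAAT in 4 (33.8%), TATAAA in 1 (12.4%) and TGACGTCA in 0 (1.55%). Counted by gene, GGGCGG was in 5 of the 9, CACGTG in 3, CCAAT in 2, TATAAA in 1 and TGACGTCA in 0. These are matches of letters only.

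Stxbp2 (chromosome 8, 3630955 to 3643644, plus strand) encodes Munc18-2, known for granule release from cytotoxic lymphocytes. In the water groups it measured 5.65, 5.90, 5.74 and 6.55 FPKM in BgnKO, against 2.45, 3.23, 3.29 and 3.47 FPKM in WT. With fructose its values were 5.28, 6.15, 6.10 and 8.10 FPKM in BgnKO, against 3.03, 3.24, 3.699 and 3.11 FPKM in WT. The BgnKO mean was 1.92 and 1.96 times the WT mean, with folds of 0.76 ± 0.11 and 0.79 ± 0.11 (SE). Stxbp2 starts 0.694 Mb from Ccl25, and the neighbours thus differed in opposite directions.

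Fam227b (chromosome 2, 125983483 to 126152004, minus strand) was the least expressed of the 10, at the 3.43 percentile of the tested genes. On water it measured 1.36, 1.11, 2.00 and 2.33 FPKM in BgnKO, against 0.436, 0.373, 0.584 and 0.330 FPKM in WT. On fructose it measured 2.21, 2.28, 3.86 and 2.46 FPKM in BgnKO, against 0.247, 0.473 and 0.667 FPKM in WT replicates 1 to 3, and it was listed at 0 in WT replicate 4. It passed the filter on low values through its BgnKO libraries. Its folds were 0.90 ± 0.18 and 1.46 ± 0.18 (SE). Its call on water was lost in 9 of the 16 fits that left out 1 library, namely without BgnKO water replicate 1, 3 or 4, any one WT water library, BgnKO fructose replicate 4 or WT fructose replicate 2. The same held with a pseudocount of 0.1, with no filter, under quantile normalization and in replicates 2 to 4 alone, where the folds were 1.73, 0.90, 0.86 and 0.95. Over all fits the fold lay between 0.79 and 1.73 on water and between 1.32 and 2.96 on fructose, highest with the pseudocount of 0.1.

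The name Filip1l (chromosome 16, 57353093 to 57573126, plus strand) covers 2 loci in the table, and its genotype difference lay on one of them. The locus among plus-strand genes, the annotated strand of Filip1l, measured 1.88, 2.92, 2.27 and 3.38 FPKM in BgnKO and 1.67, 1.46, 2.08 and 3.31 FPKM in WT on water. On fructose it measured 1.02, 2.82, 2.71 and 3.31 FPKM in BgnKO and 0.814, 2.42, 2.31 and 2.40 FPKM in WT. At this locus the genotypes overlapped on both drinks. The locus among minus-strand genes measured 2184, 1818, 2735 and 2746 FPKM in BgnKO and 1230, 1159, 1012 and 1618 FPKM in WT on water. On fructose it measured 5980, 3283, 3345 and 2234 FPKM in BgnKO and 1792, 1113, 1245 and 961 FPKM in WT. It held 99.8 to 99.98% of the sum in every library, so the value tested under the name Filip1l is that of the opposite strand. The labels do not state whether counting used strand, and without it reads from opposite strands cannot be told apart. The fold of the sum was 0.92 ± 0.26 on water and 1.48 ± 0.26 on fructose (SE), and the lowest BgnKO library (1821 FPKM) lay just above the highest WT library (1793 FPKM). Its call on fructose was also lost under quantile normalization, where the fold was 1.00.

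Cmss1, which spans Filip1l on the opposite strand, has a locus of its own and was not called on either drink. It measured 10.1 to 12.4 FPKM in BgnKO and 10.97 to 11.8 FPKM in WT on water, and 9.60 to 11.7 FPKM in BgnKO and 9.48 to 11.9 FPKM in WT on fructose. The genes whose profiles were most like that of Filip1l over the 16 libraries were Lars2, the mitochondrial leucyl-tRNA synthetase (Pearson r of log2 values 0.980), and Rmrp, the RNA of the nuclease MRP (0.925). Lars2 measured 22.2 to 59.0 FPKM over the 8 BgnKO libraries and 11.99 to 20.9 FPKM over the 8 WT libraries, and like Filip1l it was highest in BgnKO fructose replicate 1. For Rn45s, the precursor of ribosomal RNA, each of the 8 BgnKO libraries holds a 0, against 373 to 1085 FPKM in the 8 WT libraries. The part of these RNAs in the Filip1l value was not tested.

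**Figure D2:**
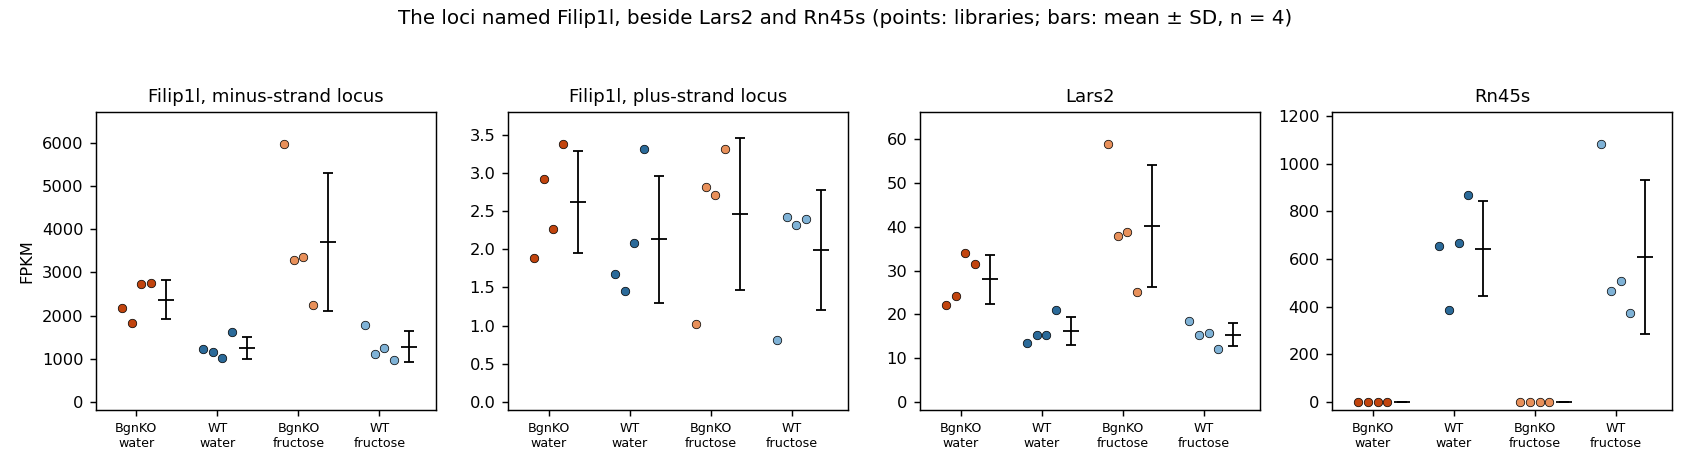
FPKM (y axis, linear, one scale per panel) of both loci named Filip1l, of Lars2 and of Rn45s in BgnKO and WT libraries on water and on fructose; points are libraries and bars give the mean ± SD of 4. The minus-strand locus and Lars2 are higher in BgnKO and both peak in BgnKO fructose replicate 1 (5980 and 59.0 FPKM), the plus-strand locus overlaps between genotypes, and Rn45s is at 0 in BgnKO.

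Bgn itself (chromosome X, 73483602 to 73495933, plus strand), the deleted gene, averaged 6.50 ± 1.14 FPKM over the 8 BgnKO libraries and 16.01 ± 6.42 FPKM over the 8 WT libraries (SD), a difference of -9.51 FPKM (two-sided exact permutation p = 0.00109). By the test used for the other genes, Bgn was not called on either drink. Its folds were -1.09 ± 0.34 on water (SE, limma adjusted p = 0.370) and -1.07 ± 0.34 on fructose (limma adjusted p = 0.0869). The library labelled WT fructose replicate 1, with 5.42 FPKM of Bgn, lay within the BgnKO range of 4.46 to 7.60 FPKM. The 10 genes were chosen with this library counted as WT, so their values are not used to judge its label. Outside the 10, Ndufs5 and Rn45s measured 14.0 and 1085 FPKM in this library, within or at the end of the WT ranges. In the 8 BgnKO libraries they measured 0 to 0.216 FPKM and 0 FPKM. Why Bgn was low in this library was not tested. The Bgn value is a sum of 2 loci, and the one on the opposite strand held 12.5 to 54.1% of it. At the plus-strand locus, the annotated one, BgnKO libraries measured 3.11 to 4.93 FPKM and WT libraries 4.00 to 13.2 FPKM, with WT fructose replicate 1 again the lowest of WT. Read depth is unknown, since FPKM does not carry it, and 12343 to 12885 named genes reached 1 FPKM per library. Replicate 1 stood apart at the minus-strand locus of Bgn, where it was the lowest library in 4 of 4 groups. At the plus-strand locus this was not so in WT on water or BgnKO on fructose. Choroid plexus markers, 7 of 7 measured, summed to 799 to 6256 FPKM in BgnKO and 2506 to 6042 FPKM in WT on water, and to 2631 to 9144 FPKM in BgnKO and 229 to 4445 FPKM in WT on fructose. Markers of meninges and fibroblasts, 7 of 7 measured, summed to 75.1 to 94.3 FPKM in BgnKO and 38.6 to 78.4 FPKM in WT on water, and to 37.7 to 109 FPKM in BgnKO and 18.03 to 83.9 FPKM in WT on fructose. All of these ranges overlapped, and none of the 14 genes was at 0 throughout a group. Limma called 0 of them in either genotype comparison (0 on water and 2 on fructose at an unadjusted p under 0.05). Folds were above 0 for 7 of 7 meninges genes on both drinks, and for 4 of 7 choroid plexus genes on water and 7 of 7 on fructose. The mean BgnKO sum was 1.29 and 1.30 times that of WT on water and fructose for meninges, and 0.961 and 1.94 times for choroid plexus. Astrocyte markers, 7 of 7 measured, summed to 1256 to 1865 FPKM in BgnKO and 1210 to 1427 FPKM in WT on water, and to 1409 to 1919 FPKM in BgnKO and 1267 to 1378 FPKM in WT on fructose, where the ranges did not overlap and Gfap, Aqp4 and Gja1 were called, all higher in BgnKO. Microglia markers, 7 of 7 measured, summed to 91.6 to 177 FPKM in BgnKO and 90.1 to 122 FPKM in WT on water, where the ranges overlapped. On fructose they summed to 125 to 169 FPKM in BgnKO and 99.4 to 120 FPKM in WT, without overlap. Limma called 0 of 7 on either drink (0 on water and 4 on fructose at an unadjusted p under 0.05). All 7 excitatory neuron markers were detected, though Camk2a was listed at 0 throughout WT on fructose and was the one called. Folds were below 0 for 7 of 7 on water (1 at an unadjusted p under 0.05) and for 6 of 7 on fructose, all but Camk2a (5 at an unadjusted p under 0.05, Camk2a included). Over all tested genes, 5.33% on water and 21.3% on fructose had an unadjusted p under 0.05 by limma. The part of these cells in the values of the 10 genes was not tested.

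Within groups the correlations between the 10 genes ran in both directions, and they were not compared with those of other gene pairs. The deviations of 2 genes from their group means had Pearson correlations with a median of 0.08 over the 45 pairs and a median size, regardless of sign, of 0.252. The lowest, -0.618, was that of Stxbp2 and Snapc1, which differed between genotypes in opposite directions. So did Hdhd3 and D8Ertd82e, whose correlation was 0.58. The highest, 0.85, was that of Hdhd3 and Alad, and the next was 0.59. The replicate spread differed widely, with Lyplal1 at one end and Filip1l, at the 96.8 percentile of all tested genes, at the other. Fam227b was at the 88.5 percentile, Hdhd3 at 75.9, Alad at 73.9, Bex4 at 65.7, Stxbp2 at 52.7, Ccl25 at 39.2, Snapc1 at 27.2 and D8Ertd82e at 19.3.

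Over all 16 libraries the profiles most like those of the 5 lower genes belonged to the same pair each time, Ndufs5, a subunit of respiratory complex I, and Rn45s. Ndufs5 had a Pearson r of 0.982 with Bex4, 0.972 with Ccl25, 0.986 with Lyplal1, 0.958 with Snapc1 and 0.981 with D8Ertd82e. It measured 0 to 0.216 FPKM over the 8 BgnKO libraries and 9.82 to 14.0 FPKM over the 8 WT libraries. For Hdhd3, Alad and Stxbp2 the nearest profiles were A930005H10Rik (r of 0.950, 0.937 and 0.952) and BC002163 (0.929, 0.922 and 0.948), both higher in BgnKO. Fam227b was most like Pnck, a calcium/calmodulin-dependent kinase gene on the X chromosome, with an r of 0.944. The 16 points fall into the 2 genotypes, so each r mainly reflects that split and is given as a measure of likeness alone.

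The 10 genes lie on 7 chromosomes, 3 of them on chromosome 8 and 2 on chromosome 4. For 6 of the 10, another gene called on both drinks started within 1 Mb, which was so for 3.43% of the 12090 tested genes with a position. Hdhd3 and Alad are such a pair and count only through each other. Stxbp2 and Ccl25 are another, each with Trappc5 nearby. The 10 genes were chosen on these contrasts and can count for each other. Nothing is therefore read from this count, or from the shares by chromosome below, which include them. Snapc1 had Slc38a6, a member of an amino acid transporter family, 678 kb away, and D8Ertd82e had AI429214 899 kb away. Bex4, Lyplal1, Fam227b and Filip1l had none, and on their chromosomes the nearest started 30.0 Mb from Bex4, 3.28 Mb from Lyplal1 and 14.4 Mb from Filip1l. Tests found calls on water in 1.71% of the tested genes on chromosome 4 (13 of 760), 1.36% on chromosome 12 (6 of 442), 1.08% on chromosome 8 (7 of 650) and 0.726% on the X chromosome (3 of 413), the 10 genes included. On the other chromosomes that hold one of the 10, the shares were 0.513% on chromosome 16 (2 of 390), 0.423% on chromosome 1 (3 of 710) and 0.206% on chromosome 2 (2 of 970).

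Of the 91 other tested genes that start within 1 Mb of one of them, 3 were called on water and 7 on fructose, or 3.30% and 7.69%, beside 0.387% and 3.76% of all tested genes. Those called on water were Trappc5, Slc38a6 and AI429214. Trappc5, a subunit of the TRAPP vesicle-tethering complex 45.3 kb from Stxbp2, averaged 19.8 ± 0.367 FPKM in BgnKO and 15.6 ± 1.33 FPKM in WT (SD, log2 fold 0.33 ± 0.07, limma adjusted p = 0.0471). Slc38a6 averaged 0.704 ± 0.173 FPKM in BgnKO and 1.54 ± 0.124 FPKM in WT (fold -0.58 ± 0.09, limma adjusted p = 0.00444). It passed the filter on low values only through its WT libraries, so that its call was favoured by the filter. AI429214 averaged 1.44 ± 0.0402 FPKM in BgnKO and 2.31 ± 0.125 FPKM in WT (fold -0.44 ± 0.07, limma adjusted p = 0.0114). On fructose these 3 were called in the same direction, together with Evi5l, Snapc2, Arxes2 and Rprl3. Evi5l averaged 22.1 ± 1.54 FPKM in BgnKO and 28.6 ± 3.42 FPKM in WT (fold -0.35 ± 0.09, limma adjusted p = 0.0459). Arxes2, 145 kb from Bex4, averaged 26.0 ± 2.43 FPKM in BgnKO and 18.6 ± 3.08 FPKM in WT (fold 0.47 ± 0.10, limma adjusted p = 0.0228). Rprl3 measured 1.83 to 7.07 FPKM in BgnKO and 0 to 0.336 FPKM in WT on fructose, and was listed at 0 in the 4 WT water libraries. It passed the filter only through its BgnKO libraries, so that its call too was favoured by the filter. The counts were 6 on water and 19 on fructose with a term for replicate 1, which called 0.996% and 17.3% of all tested genes. The count on fructose was 3 without BgnKO fructose replicate 3, WT fructose replicate 2 or WT fructose replicate 4. Those 3 fits called 1.92%, 1.41% and 1.16% of all tested genes on fructose.

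Of the 18 nearest flanking genes that are not among the 10, 1 was called on each drink, Trappc5. Pole3, 5.15 kb from Alad, had folds of 0.04 ± 0.13 on water and -0.14 ± 0.13 on fructose (SE), and Wdr31, 32.6 kb from Hdhd3, had -0.12 ± 0.11 and 0.03 ± 0.11. The tested genes on either side of the Hdhd3 and Alad pair were thus not called. Elavl1, 0.203 kb from Ccl25, had folds of 0.11 ± 0.11 and 0.02 ± 0.11, and Dtwd1, 0.137 kb from Fam227b, had 0.01 ± 0.11 and -0.07 ± 0.11. Ccl25 has another promoter entry inside the gene, at chr8:4349338-4349587, so the Elavl1 distance holds for its outer start only. Around Bex4, Bex2 had -0.04 ± 0.08 and -0.21 ± 0.08, and Tceal8 had 0.08 ± 0.05 and 0.12 ± 0.05. None of these 6 genes passed the test on either drink.

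**Figure D3:**
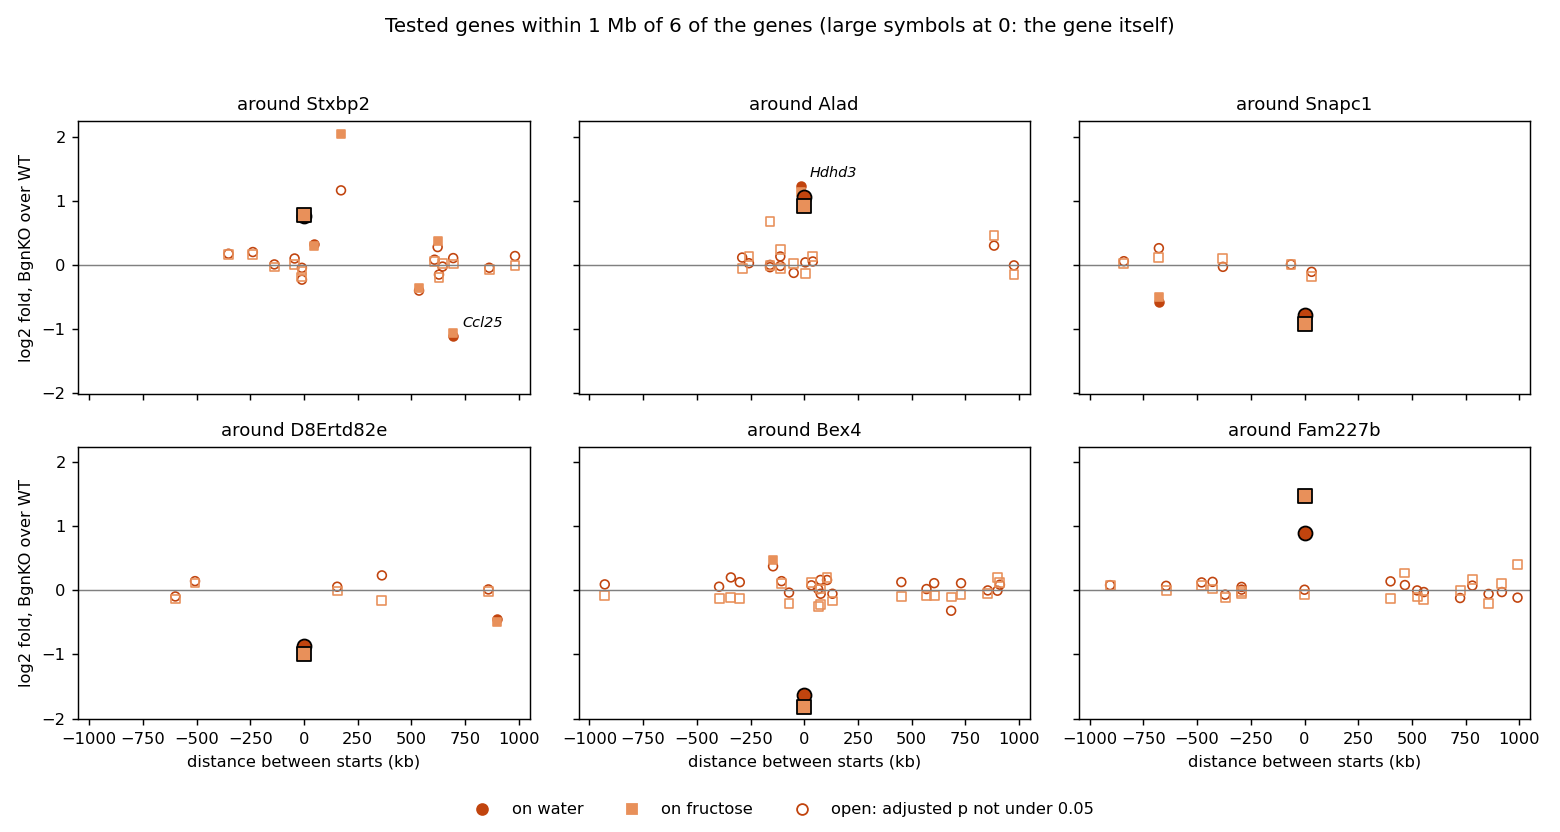
Log2 fold of FPKM + 1, BgnKO over WT (y axis), against the distance between gene starts in kb (x axis) for tested genes within 1 Mb of Stxbp2, Alad, Snapc1, D8Ertd82e, Bex4 and Fam227b. Circles are water and squares fructose, filled where the adjusted p was under 0.05, and the large symbols at distance 0 stand for the gene itself; most neighbours lie near 0, and Trappc5, 45.3 kb from Stxbp2, is the one direct neighbour called on both drinks.

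Bex4 shares its chromosome with Bgn but starts 62.7 Mb from it. Of the 61 other tested genes within 10 Mb of Bgn, 1 was called on water, Pnck, and 4 on fructose. These are 1.64% and 6.56%, beside 0.387% and 3.76% of all tested genes. Pnck, 177 kb from Bgn, had folds of 0.44 ± 0.08 on water (limma adjusted p = 0.0160) and 0.45 ± 0.08 on fructose (limma adjusted p = 0.00613). Its call on water was lost without BgnKO water replicate 3 or 4, or without WT water replicate 2, 3 or 4. The others on fructose were Tmem47 (0.46 ± 0.10, limma adjusted p = 0.0244), 1110012L19Rik (0.31 ± 0.07, limma adjusted p = 0.0242) and Pnma3 (-0.32 ± 0.08, limma adjusted p = 0.0493). The count of 4 was 9 with a term for replicate 1, and it was 1 without BgnKO fructose replicate 3 or 4 or WT fructose replicate 4, and 2 without WT fructose replicate 1, 2 or 3. The tested genes on either side of Bgn, Haus7 and Atp2b3, were not called on either drink, with folds of -0.11 ± 0.11 and -0.10 ± 0.14 on water (SE). Among these 61 genes no fold reached the size of that of Bex4. Since Bex4 was chosen for its genotype difference and the 61 by position, nothing is read from this.

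**Figure D4:**
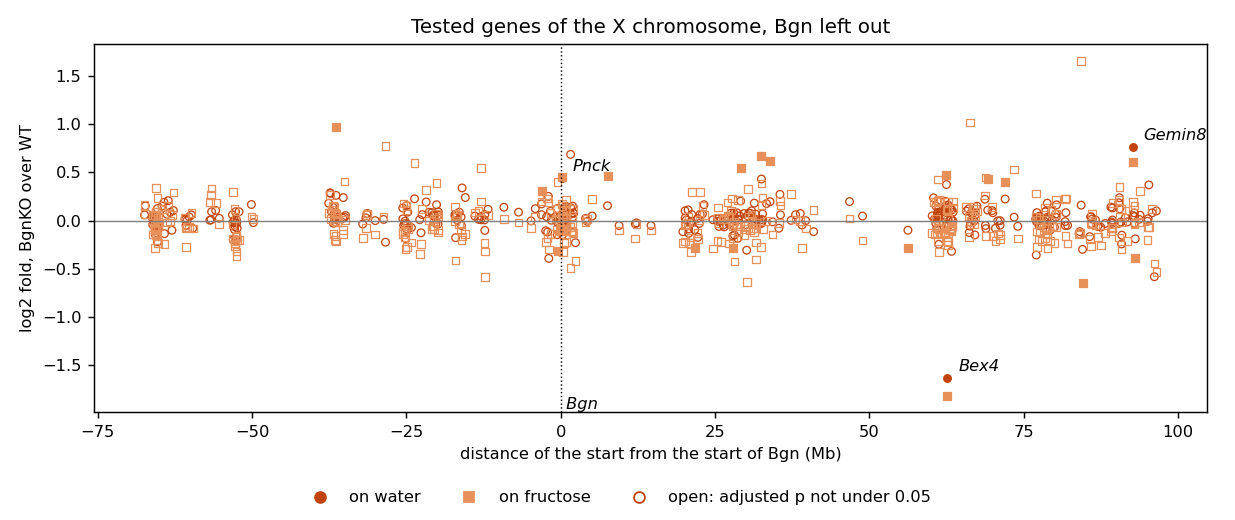
Log2 fold of FPKM + 1, BgnKO over WT (y axis), against the distance of each tested X-chromosome gene from the start of Bgn in Mb (x axis); circles are water and squares fructose, filled where the adjusted p was under 0.05. Bex4, 62.7 Mb from Bgn, has the lowest folds on the chromosome (-1.64 on water and -1.82 on fructose), while Pnck, 177 kb from Bgn, lies near 0.44.

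Genes of the families and pathways of the 10 were called on fructose at a share near that of all tested genes. Of 70 tested genes on 11 lists, the small leucine-rich proteoglycans with Bgn itself included, 0 were called on water with limma. At an unadjusted p under 0.05 there were 6 on water and 15 on fructose, beside 5.33% and 21.3% of all tested genes. On fructose 2 were called, both higher in BgnKO, which is 2.86% beside 3.76% of all tested genes. They were Ppt1, the lysosomal palmitoyl-protein thioesterase, and Snapc2, a partner of Snapc1. Ppt1 averaged 54.4 FPKM in BgnKO and 41.0 FPKM in WT on fructose (fold 0.40 ± 0.07, limma adjusted p = 0.00535). Snapc2, which lies 72.1 kb from Ccl25, averaged 15.7 ± 1.58 FPKM in BgnKO and 11.9 ± 1.11 FPKM in WT on fructose (SD, fold 0.37 ± 0.09, limma adjusted p = 0.0370), opposite to Snapc1. The other subunits had water folds of -0.05 ± 0.08 (Snapc3), -0.04 ± 0.14 (Snapc4) and 0.06 ± 0.13 (Snapc5) (SE). That count of 2 was 12 with a term for replicate 1 and 8 in replicates 2 to 4 alone, settings that also called more of all tested genes. It was 1 without BgnKO water replicate 3, WT water replicate 3, BgnKO fructose replicate 3 or 4, or WT fructose replicate 2 or 4, and 6 without BgnKO fructose replicate 1.

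In the heme pathway, 12 of 12 listed genes beside Alad were tested and 0 were called. The enzyme before it, Alas1, had folds of 0.01 ± 0.07 on water and -0.03 ± 0.07 on fructose (SE). None of 8 tested genes of the Bex and Tceal families was called; Bex1, at 39.0 FPKM in BgnKO and 40.3 FPKM in WT on water, and Bex2, at 220 FPKM in BgnKO and 226 FPKM in WT, were far more abundant than Bex4. Among 9 tested Sec1/Munc18 proteins and partners of Stxbp2, 9 hydrolases listed with Hdhd3, 3 partners of Pragmin and 3 genes listed with Filip1l, 0 were called. Of the 5 depalmitoylases and thioesterases listed with Lyplal1, Ppt1 was called, and Lypla1 had folds of 0.02 ± 0.15 and 0.17 ± 0.15. Of the CC chemokines, 1 besides Ccl25 passed the filter, Ccl19, with folds of 1.32 ± 0.44 (limma adjusted p = 0.479) and 0.87 ± 0.44 (limma adjusted p = 0.271).

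No fructose difference of the 10 genes passed the test. With limma, 0 of 10 were called in BgnKO, where 0% of all tested genes were, and 0 of 10 in WT, where 0.00791% were (1 gene). At an unadjusted p under 0.05 there were 3 of the 10 in BgnKO, against 1630 of all 12648 tested genes, and 0 of the 10 in WT, against 263 of all tested genes. In BgnKO these were Filip1l, Fam227b and Snapc1. Filip1l averaged 3713 ± 1596 FPKM on fructose and 2373 ± 453 FPKM on water in BgnKO (SD, n = 4), with a fold of 0.57 (95% interval 0.02 to 1.13, limma adjusted p = 0.376). Without BgnKO fructose replicate 1, its highest library, that fold was 0.31, and under quantile normalization it was 0.02. Fam227b averaged 2.70 ± 0.780 FPKM on fructose and 1.70 ± 0.565 FPKM on water in BgnKO (fold 0.46, 95% interval 0.08 to 0.83, limma adjusted p = 0.324). Snapc1 averaged 6.62 ± 0.883 FPKM on fructose and 7.69 ± 0.643 FPKM on water in BgnKO (fold -0.19, 95% interval -0.36 to -0.02, limma adjusted p = 0.347). For each of these the fructose and water libraries of BgnKO overlapped.

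The other fructose folds lay between -0.17 (Hdhd3) and 0.13 (Ccl25) in BgnKO. In WT all 10 lay between -0.11 (Fam227b) and 0.14 (Bex4), each with an adjusted p of 1 by limma. The median absolute fold of the 10 was 0.14 in BgnKO and 0.06 in WT, beside 0.10 and 0.06 over all tested genes. The tightest interval was that of Lyplal1, from -0.10 to 0.19 in BgnKO and from -0.14 to 0.14 in WT. For Filip1l in WT the interval ran from -0.54 to 0.56, so a sizeable change would not have been detectable. For all 10, the genotype folds on either drink were larger than the fructose folds of the same gene. The choice of the genes on their genotype differences largely fixed this in advance, so nothing is read from it. Filip1l came closest, with 0.92 and 1.48 between genotypes and 0.57 between drinks in BgnKO. Whether fructose acted differently in the 2 genotypes was not tested for these genes, since that difference is made of the contrasts they were chosen on.

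**Figure D5:**
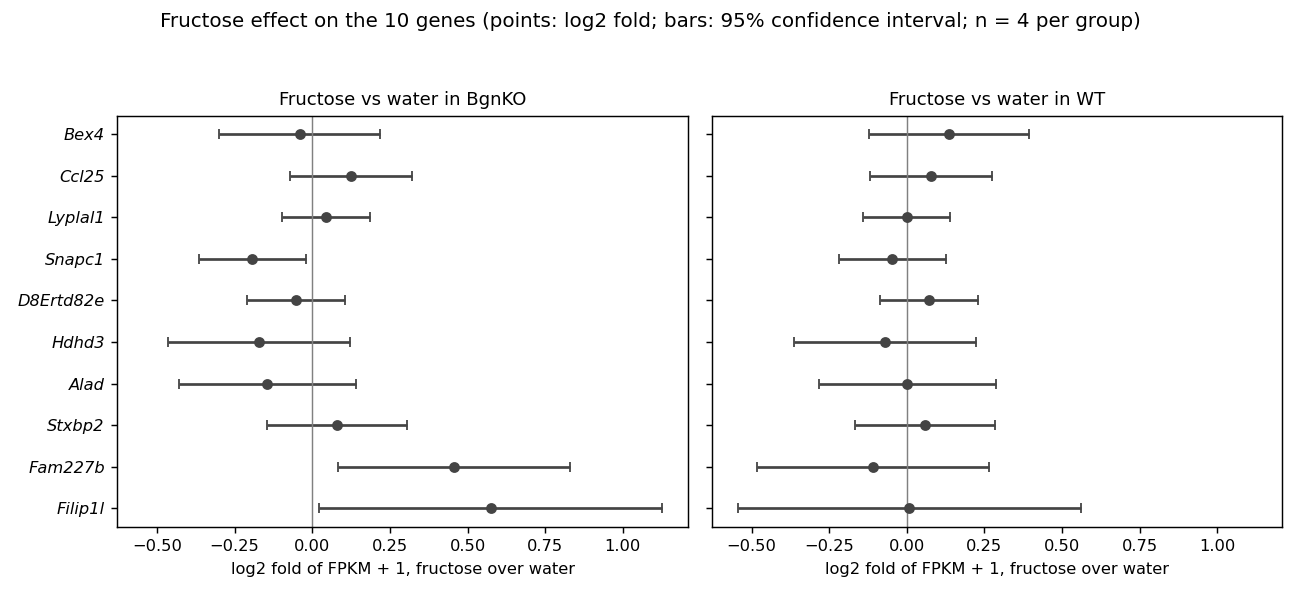
Log2 fold of FPKM + 1, fructose over water (x axis), for each of the 10 genes in BgnKO (left) and WT (right); points are folds and bars are 95% confidence intervals from 4 libraries per group. In BgnKO the intervals of Filip1l, Fam227b and Snapc1 leave out 0 before adjustment, and in WT all 10 intervals hold 0.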

How the data were processed

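Messenger RNA of hippocampus was sequenced from 16 libraries. Per the labels' protocols, polyadenylated RNA was selected and copied with random hexamers. Per the submitters' processing notes, reads were handled with TopHat and Bowtie on mm10 and quantified with Cufflinks and Cuffdiff, with no versions, strand setting or scaling given. The values are FPKM as the authors deposited them. Depth is unknown, so no counting interval is given.

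FPKM of loci with the same name were summed. The 12648 genes that averaged 1 FPKM or more were tested on log2(FPKM + 1) with limma 3.58.1 (R 4.3.3; linear model, then empirical Bayes with a mean trend), using 4 group means and all 16 libraries. Benjamini-Hochberg adjustment covered all tested genes, with a threshold of 0.05. The fit was tested on simulated data. The pseudocount understates the folds of weakly expressed genes.

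Positions are 1-based, from GENCODE vM21 (GRCm38, the assembly of mm10) and then RefSeq GRCm38.p6. Distances are between annotated starts. The strand of a locus was read from the genes beside it in the table. The 10 genes and the gene and marker lists were chosen with earlier results of these data known. The text names the 10 genes, Bgn, flanking genes, called neighbours and list genes (up to 4 per list or neighbourhood, by unadjusted p), and for each of the 10 the 2 genes of highest correlation. Partners of Snapc1, Alad, Bex4, Lyplal1 and Ccl25 that were not called were named after their values were seen.

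Same-numbered libraries had deviations from their group means that correlated by 0.20 to 0.61 in BgnKO and by 0.12 to 0.70 in WT for fructose against water, over 0.1 in every pair. For BgnKO against WT they ran from -0.04 to 0.69 (water) and from 0.09 to 0.75 (fructose), so the numbers were not taken to pair these. In each of these comparisons the highest value was that of replicate 1. The labels do not say that the numbers mark a batch or litter, so the main fit had no block. Fits with a block are given below.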

Additional observations from a re-analysis of the deposited data

Results flagged for a closer look

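In 4 of 44 sets of 4 libraries (10 genes and Bgn, 4 groups each), 1 library stood far from the other 3, where chance gives about 1 in 20 sets. Alad measured 8.74 FPKM in BgnKO water replicate 3, beside 12.3 to 12.9 FPKM in the other BgnKO water libraries. In BgnKO fructose replicate 3 it measured 14.5 FPKM, beside 8.84 to 9.29 FPKM in the others. Fam227b measured 3.86 FPKM in BgnKO fructose replicate 3, beside 2.21 to 2.46 FPKM. Bgn measured 4.46 FPKM in BgnKO water replicate 1, beside 7.19 to 7.60 FPKM. This is a sum of 2 loci: the plus-strand locus measured 3.59 FPKM, beside 3.82 to 4.05 FPKM, and the minus-strand locus 0.867 FPKM, beside 3.25 to 3.56 FPKM.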

How the results depend on the processing

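The genotype folds of the 10 genes kept their sign in every fit run. Their choice on these contrasts largely fixed this in advance, so nothing is read from it. For fructose against water, 0 of 10 were called in either genotype in any fit, the replicate block included. With a pseudocount of 0.1 the median absolute fold on water was 1.08 (0.91 as reported). Calls among the 91 neighbours on water (3 as reported) were 6 with the replicate block, with a term for replicate 1 and in replicates 2 to 4 alone. They were 2 to 4 with 1 library left out, and 0 at a mean of at least 5 FPKM, where fewer neighbours were tested. In other windows the calls on water were 1 of 38 genes within 0.25 Mb and 6 of 337 within 5 Mb. Among the 91 neighbours on fructose (7 as reported) the calls were 19 with the replicate block and with a term for replicate 1. They were 13 in replicates 2 to 4 alone and 3 to 10 with 1 library left out. With no filter they were 11 among more neighbours, and at 5 FPKM 4 among fewer. Within 5 Mb the calls on fructose were 28 of 337 genes, or 8.31%. Calls around Bgn on fructose (4 of 61 as reported) were 8 with the block, 9 with the term and 1 to 4 with 1 library left out. Within 2 Mb they were 2 of 44 genes. On water the calls around Bgn were 0 to 1. Calls on the lists were 2 on water (0 as reported) and 13, 12 and 8 on fructose (2 as reported) with the block, the term and replicates 2 to 4 alone, and 0 to 1 and 1 to 6 with 1 library left out, the 1 on water being without WT fructose replicate 1. Over all tested genes the calls on fructose were 475 as reported (3.76%), 2483 with the block (19.6%) and 2190 with the term (17.3%). On water they were 49 (0.387%), 125 (0.988%) and 126 (0.996%). In replicates 2 to 4 alone, 10.9% were called on fructose and 0.625% on water.

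Some fructose folds changed sign. In WT they were 0.00236 by quantile normalization and 0.0292 in replicates 2 to 4 for Lyplal1, -0.00792 by median-ratio rescaling and -0.000567 by quantile normalization for Alad, and -0.00333, -0.0623 and (replicates 2 to 4) -0.169 for Filip1l. In BgnKO it was 0.00534 in replicates 2 to 4 for D8Ertd82e. With 1 library left out, the WT folds ran from -0.0195 to 0.0376 (Lyplal1), -0.0357 to 0.0412 (Alad), -0.0231 to 0.101 (Stxbp2), -0.221 to 0.0244 (Fam227b) and -0.167 to 0.138 (Filip1l), and the BgnKO folds from -0.119 to 0.0754 (Bex4) and -0.0246 to 0.153 (Stxbp2). Why these values moved was not tested. FPKM without depth limits what low genes such as Fam227b can show.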
